A study of Mus musculus with 4 samples.

Results

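The hypoxia response and glycolysis genes described here are 44 genes chosen by symbol from a table of 48178 genes: every row whose gene name is on a list of oxygen sensors, targets of the hypoxia-inducible factors (HIF) and glycolytic enzymes. All 44 were found, and all 44 passed the filter on low values that 15204 genes passed. They were measured by RNA-seq in neurospheres, floating clusters of neural progenitors and their progeny. The name describes what the genes are known for: neither oxygen nor HIF protein was measured.

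The FGF13Aoe group carried hGFAPCre and ROSA26FGF13A LSL/+, a ROSA26 allele with an FGF13A cassette behind a stop that Cre removes, and is represented by 2 libraries. The control group, littermates, carried hGFAPCre and ROSA26FGF13A +/+ and has 2 libraries. Both groups thus carried Cre, driven by a human GFAP promoter that is active in astroglia and in neural progenitors, so the cassette acts only in cells of that descent. All cells came from the hippocampus of C57BL/6 mice at postnatal day 0, were labelled neural progenitor cells, grew with EGF and FGF-2 at 20 ng/ml each, and were collected on day 7. The cells of a mouse had been divided over 2 wells, and whether libraries of the same group derive from different pups is not labelled, so every p-value here reflects the spread among these 4 libraries, which may be technical.

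HIF is a pair of proteins, an alpha subunit (HIF1A, or EPAS1, also called HIF2A) and ARNT. In normal oxygen, prolyl hydroxylases of the EGLN family mark the alpha subunit, VHL then leads it to destruction, and the pair binds DNA mainly when oxygen is low. Its targets raise glucose uptake, glycolysis and lactate export, signal to vessels and reduce the use of pyruvate by mitochondria. Neural progenitors are known to rely on glycolysis more than neurons do.

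Reads in genes, recovered from the table, numbered 9724413 and 11389767 in FGF13Aoe replicates 1 and 2, and 14092685 in control replicate 2. For control replicate 1 the recovery gave 11481591 but was not accepted, so that number is uncertain. Fgf13, which the cassette encodes, had 5410 and 4447 normalized counts (reads divided by a library size factor) in the FGF13Aoe libraries, against 772 and 769 in the control libraries. Both FGF13Aoe libraries thus carried it. Summed neuron markers were at 10231 and 13118 normalized counts in FGF13Aoe libraries against 40431 and 31608 in control libraries (9 of 10 fell, 0 rose), and astrocyte markers at 271270 and 259465 against 92732 and 66360 (6 of 10 rose, 0 fell; 3 rose without control replicate 2). Oligodendrocyte lineage markers were at 52858 and 58449.6 against 23904 and 29621 (6 of 10 rose, 0 fell), and proliferation markers at 5623 and 8047 against 12943 and 17268 (0 rose, 7 of 10 fell, 4 without control replicate 2). Of pericyte and fibroblast markers 0 rose and 4 of 7 tested fell (1 without control replicate 1), and of ependyma and choroid plexus markers 0 rose and 2 of 6 tested fell (1 without either control library). Of microglial markers 0 rose and 3 of 7 tested fell (0 without control replicate 1 and 1 without control replicate 2), and of 6 tested endothelial markers 0 were called by limma (1 had an unadjusted p under 0.05). Microglial and endothelial markers summed to at most 595 in every library, and erythroid markers to at most 16.2, with Gata1, Hbb-bs, Hba-a1 and Hbb-bt listed at 0. Of all tested genes 16.2% rose and 19.1% fell. In RNA from whole cultures, fewer cells of a type and less RNA per cell cannot be told apart. The part of cell makeup in the results on the 44 genes was not tested.

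The 44 genes set the FGF13Aoe libraries apart from each other more than they set the FGF13Aoe group apart from control. In FGF13Aoe replicate 1, 37 of the 44 genes lay above both control libraries and 4 below both, beside 44.2% and 46.3% of all tested genes. In FGF13Aoe replicate 2, 18 lay above both control libraries and 15 below both, beside 44.3% and 44.7% of all tested genes. Replicate 1 held the highest of the 4 values for 36 of the 44 genes, and was the highest library for 28.2% of all tested genes. Summed, the 44 genes had 267833 normalized counts in FGF13Aoe replicate 1 and 113805 in FGF13Aoe replicate 2, against 110588 and 136721 in the control libraries.

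Between the FGF13Aoe libraries, 23 of the 44 genes were at least 2-fold higher in replicate 1 than in replicate 2, which is 52.3% of them, beside 5.15% of all tested genes. None of the 44 was at least 2-fold lower in replicate 1, beside 2.95% of all tested genes. At 4-fold the count was 10, or 22.7%, beside 0.921% of all tested genes: Car9, Slc2a1, Ero1l, Adm, P4ha2, Ndrg1, Gpi1, Hk2, Vegfa and Slc2a3. The median difference between these libraries was 1.13 log2 units over the 44 genes and -0.01 over all tested genes, with an SD over all tested genes of 0.59. It compares 1 library with 1 library and has no replicate check. The control libraries differed less and in a common direction: 38 of the 44 genes were lower in control replicate 1 than in control replicate 2, with a median of -0.37 log2 units, against -0.02 over all tested genes. Slc16a3, Ankrd37 and Car9 were at least 2-fold lower in control replicate 1 (6.82% of the 44 genes, beside 2.16% of all tested genes), and 0 were 2-fold higher (1.82%).

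**Figure D1:**
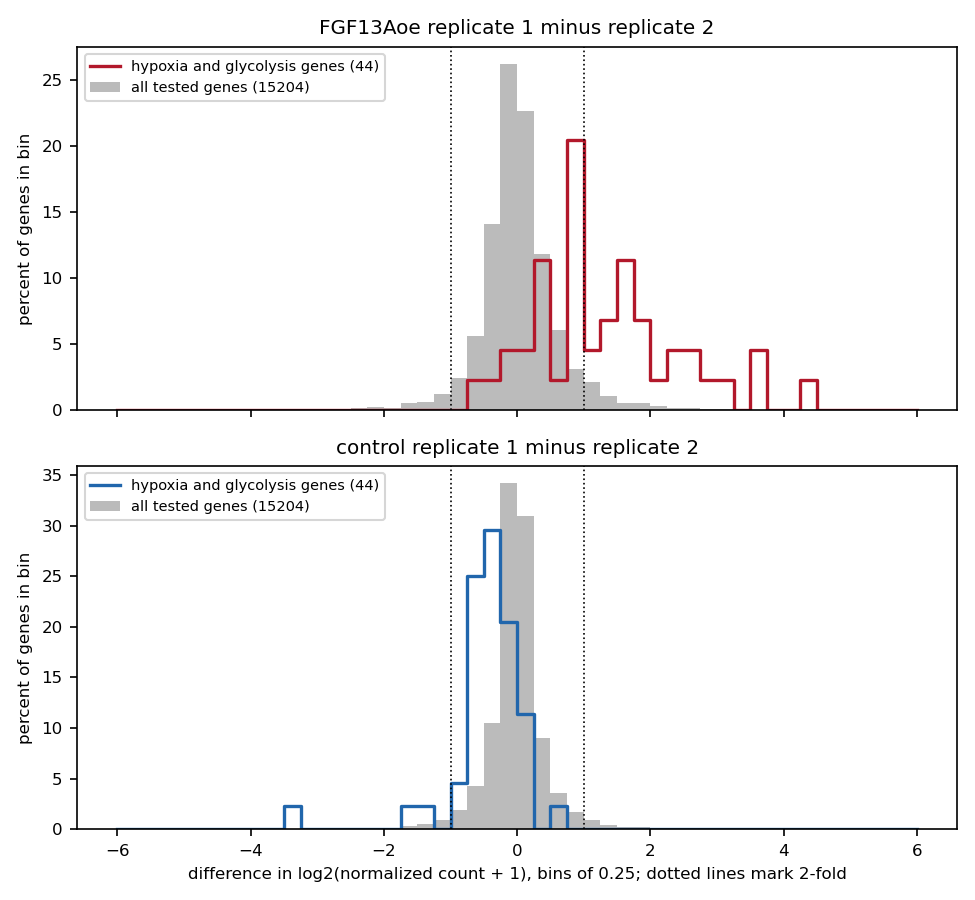
Distribution of the difference between the libraries of a group, replicate 1 minus replicate 2, in log2(normalized count + 1), as the percent of genes in bins of 0.25, for the 44 genes and for all 15204 tested genes. Upper panel, FGF13Aoe: the 44 genes lie mostly right of 0 with a median of 1.13, and 23 are past the dotted line at 2-fold. Lower panel, control: the 44 genes lie slightly left of 0 with a median of -0.37.

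Tested over the libraries of both groups with limma, 8 of the 44 genes rose in FGF13Aoe cultures, beside 16.2% of all tested genes, and 2 fell, beside 19.1%. The genes that rose were Vegfa, Pfkl, Aldoc, Pdk1, Bnip3, Bnip3l, Kdm3a and Mxi1, and those that fell were Car12 and Pkm. The other 34 did not pass. The counts of calls lie near or below these shares and set the 44 genes little apart. The median log2 change was 0.67 over the 44 genes and -0.01 over all tested genes. The libraries of the groups did not overlap for 18 genes that were higher (36.2% of all tested genes) and 4 that were lower (37.5%), and overlapped for 22. By the adjusted p in the authors' deposited table, with the same threshold, 11 of the 44 genes were higher (14.9% of all tested genes) and 2 lower (17.7%), with 10 in common with the limma calls, in the same direction; Ankrd37, Ddit4 and P4ha2 were the additional ones.

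Set against the same control libraries singly, the FGF13Aoe libraries gave different pictures. FGF13Aoe replicate 1 alone gave 27 of the 44 genes higher and 3 lower, with a median log2 difference of 1.25, beside 18.6% and 22.7% of all tested genes. FGF13Aoe replicate 2 alone gave 10 higher and 7 lower, with a median of 0.02, beside 15.0% and 20.2%. These comparisons share their control libraries, and the lone library was assumed to vary as the control libraries do, so each p compares a library and not a condition. The 10 genes higher in replicate 2 alone were Vegfa, Slc2a3, Pfkfb3, Aldoc, Pdk1, Bnip3, Bnip3l, P4ha2, Kdm3a and Mxi1, and each also passed with replicate 1 alone. The 7 lower ones were Car12, Hk1, Pgam1, Eno1, Eno2, Pkm and Higd1a, of which Car12 and Pkm passed with replicate 1 alone. Without control replicate 1 limma called 2 genes higher (3.62% of all tested) and 1 lower (5.70%), and without control replicate 2 it called 3 higher (5.06%), Slc16a3 among them, and 1 lower (6.41%). Mxi1 and Kdm3a, higher, and Car12, lower, were called in all 4 of these leave-outs.

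**Figure D2:**
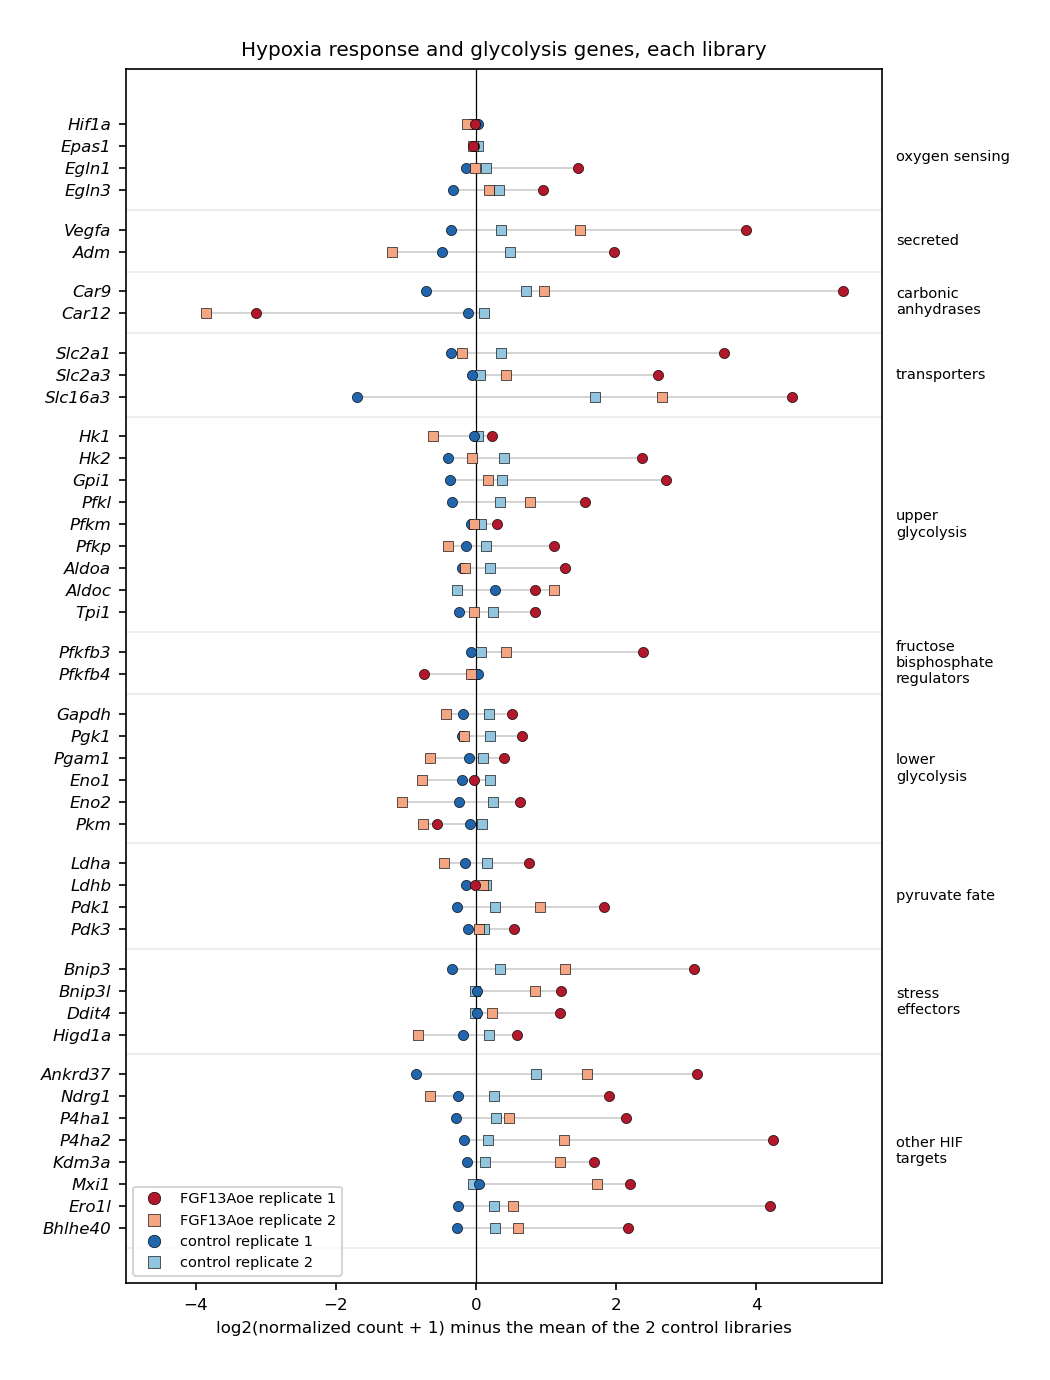
Each of the 44 genes in each library, as log2(normalized count + 1) minus the mean of the 2 control libraries, grouped by role; red shades are FGF13Aoe and blue shades control libraries, circles replicate 1 and squares replicate 2. FGF13Aoe replicate 1 lies far to the right for Car9, Ero1l, P4ha2, Vegfa and Slc2a1, FGF13Aoe replicate 2 lies near the control libraries for most genes, and both lie to the left for Car12.

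A short sequence, ACGTG or GCGTG on either strand, is the core of the DNA element that HIF binds, and it overlaps the E-box CACGTG that other factors bind. It was searched in the 250 bases before each annotated start, taken from RefSeq on GRCm38.p6, with CACGT and CACGC as the forms of the opposite strand. Windows were found for 38 of the 44 genes, not for Epas1, Slc2a3, Bnip3l, Ndrg1, Ero1l and Bhlhe40. At least 1 window held the core in 34 of these 38 genes (89.5%), beside 60.9% of the 11148 tested genes with a window and 41.5% of all 27025 genes. Counted per window, 43 of 56 (76.8%) held it, beside 12679 of 32851 (38.6%). The core did not separate the genes that differed between the FGF13Aoe libraries: 17 of 19 genes at least 2-fold higher in replicate 1 held it, and so did 17 of 19 of the other genes. Genes with many annotated starts have more windows, and a match is a description of letters, not evidence of binding.

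The windows of 5 genes are shown because Car9, Slc2a1, Adm and P4ha2 are the genes with a window that differed most between the FGF13Aoe libraries, and Car12 is the gene that fell most. All are on the plus strand of GRCm38.p6, written 5′ to 3′, with the core in capitals. They are chr4:43506776-43507025 for Car9, chr4:119108495-119108744 for Slc2a1, chr7:110627407-110627656 for Adm, chr11:54100674-54100923 for P4ha2 and chr9:66713436-66713685 for Car12.
Car9: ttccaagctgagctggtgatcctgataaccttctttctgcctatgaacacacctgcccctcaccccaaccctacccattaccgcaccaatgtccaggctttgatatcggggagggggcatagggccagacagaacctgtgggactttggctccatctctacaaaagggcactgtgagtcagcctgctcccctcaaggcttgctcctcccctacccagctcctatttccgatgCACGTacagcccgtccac
Slc2a1: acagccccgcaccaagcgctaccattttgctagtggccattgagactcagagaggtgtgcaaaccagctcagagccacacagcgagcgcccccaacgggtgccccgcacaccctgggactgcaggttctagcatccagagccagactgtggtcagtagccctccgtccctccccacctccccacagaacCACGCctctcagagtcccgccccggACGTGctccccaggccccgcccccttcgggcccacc
Adm: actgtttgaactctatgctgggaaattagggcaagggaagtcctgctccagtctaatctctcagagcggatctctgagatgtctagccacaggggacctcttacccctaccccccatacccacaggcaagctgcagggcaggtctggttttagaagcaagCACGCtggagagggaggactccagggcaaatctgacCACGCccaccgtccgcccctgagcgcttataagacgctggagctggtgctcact
P4ha2: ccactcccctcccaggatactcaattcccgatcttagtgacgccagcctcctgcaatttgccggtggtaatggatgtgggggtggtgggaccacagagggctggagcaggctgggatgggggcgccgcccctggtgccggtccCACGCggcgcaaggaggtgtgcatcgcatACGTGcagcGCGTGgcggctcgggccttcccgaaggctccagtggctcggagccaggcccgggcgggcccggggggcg
Car12: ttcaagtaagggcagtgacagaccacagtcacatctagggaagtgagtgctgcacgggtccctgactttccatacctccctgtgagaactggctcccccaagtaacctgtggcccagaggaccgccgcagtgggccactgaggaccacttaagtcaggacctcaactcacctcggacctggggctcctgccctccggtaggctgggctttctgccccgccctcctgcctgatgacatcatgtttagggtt
Car9 held 1 match, Slc2a1 and Adm 2 each and P4ha2 3, while these letters are not in the Car12 window.

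RNA of the HIF alpha subunits varied little between the 4 libraries. Hif1a (chromosome 12, 73901375 to 73947530, GRCm38) had 1507 and 1398 normalized counts in FGF13Aoe libraries against 1562 and 1494 in control libraries, a log2 change of -0.07 ± 0.11 (SE from limma, 2 libraries per group, adjusted p = 0.638). Epas1, the HIF2A subunit, had 446 and 448 against 451 and 473 (log2 change -0.05 ± 0.13, adjusted p = 0.8). Neither gene differed by more than 1.16-fold between FGF13Aoe libraries at the upper end of its counting interval. RNA of these subunits does not report their protein, which oxygen controls.

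The prolyl hydroxylases Egln1 and Egln3, which sense oxygen and are themselves HIF targets, did not pass. Egln1 had 3112 and 1129 normalized counts in FGF13Aoe libraries against 1032 and 1254 in control libraries (log2 change 0.72 ± 0.45, adjusted p = 0.253). FGF13Aoe replicate 1 was high, at 2.76 times replicate 2 (95% interval 2.57 to 2.96), and replicate 2 lay between the control libraries. Egln3 had 766 and 448 against 313 and 495 (adjusted p = 0.211), with the same order of libraries.

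Vegfa, the growth factor that draws blood vessels towards tissue short of oxygen, rose. This gene (ENSMUSG00000023951, chromosome 17, 46016993 to 46032369) had 21239.5 and 4088 normalized counts in FGF13Aoe libraries against 1144 and 1861 in control libraries. The groups did not overlap, and the log2 change was 2.67 ± 0.74 (SE from limma, 2 libraries per group, adjusted p = 0.0379). Replicate 1 stood at 14.1 times the control mean and replicate 2 at 2.72 times. The call was lost when control replicate 1 (log2 change 2.32, adjusted p = 0.156) or control replicate 2 (3.02, adjusted p = 0.0859) was left out. Adm, the vasodilator peptide adrenomedullin, had 1102 and 121 against 201 and 394 (log2 change 0.38 ± 0.99, adjusted p = 0.783). Its FGF13Aoe libraries lay on opposite sides of the control libraries, 9.07-fold apart (95% interval 7.49 to 11.1). Its log2 change was -1.21 without FGF13Aoe replicate 1 and 1.97 without FGF13Aoe replicate 2.

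The carbonic anhydrases Car9 and Car12 are enzymes on the cell surface that handle acid outside the cell, and both are known as HIF targets in tumours. Here they differed. Car9 (chromosome 4, 43506966 to 43513729) had 1048 and 53.6 normalized counts in FGF13Aoe libraries against 15.8 and 44.7 in control libraries. The ratio between the FGF13Aoe libraries was 19.5 (95% interval 14.8 to 26.3), the largest among the 44 genes. Replicate 2 was close to control replicate 2, and the group difference did not pass (log2 change 3.11 ± 1.34, adjusted p = 0.121). Car12 (ENSMUSG00000032373, chromosome 9, 66713686 to 66766845) fell, with 20.5 and 12.1 against 174 and 204. Both FGF13Aoe libraries were far below both control libraries, with a log2 change of -3.49 ± 0.34 (SE from limma, 2 libraries per group, adjusted p = 0.00225). In this gene the FGF13Aoe libraries did not differ beyond counting error, with a ratio of 1.69 (95% interval 0.761 to 3.88).

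The transporters of glucose and lactate were all highest in FGF13Aoe replicate 1, and none of the 3 passed. Slc2a1, the glucose transporter GLUT1 (chromosome 4, 119108711 to 119137983), had 8809 and 658 normalized counts in FGF13Aoe libraries against 588 and 973 in control libraries (log2 change 1.67 ± 1.13, adjusted p = 0.285). Replicate 1 was 13.4 times replicate 2 (95% interval 12.4 to 14.5), and replicate 2 lay between the control libraries. Slc2a3, the glucose transporter typical of neurons, had 3607 and 804 against 574 and 621 (log2 change 1.51 ± 0.65, adjusted p = 0.119). Its groups did not overlap, while neuron markers were lower in FGF13Aoe libraries. Slc16a3, the lactate exporter MCT4, had 1112 and 304 against 13.9 and 157 (log2 change 3.59 ± 1.16, adjusted p = 0.0588). The ratio of control replicate 1 to control replicate 2 was 0.0883 for it, and its log2 change was 1.88 log2 units without control replicate 1 and 5.29, with adjusted p = 0.0184, without control replicate 2.

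At the entry of glycolysis, where hexokinase traps glucose in the cell, the inducible enzyme Hk2 and the widely used Hk1 differed in level, and neither passed. Hk2 had 1249 and 231 normalized counts in FGF13Aoe libraries against 182 and 316 in control libraries (log2 change 1.16 ± 0.76, adjusted p = 0.275). Hk1 had 3860.3 and 2159 against 3235 and 3369.6 (adjusted p = 0.603). For both, replicate 1 was above and replicate 2 within or below the control libraries. Gpi1, which turns glucose 6-phosphate into fructose 6-phosphate, had 51971 and 8985 against 6127 and 10305 (log2 change 1.44 ± 0.79, adjusted p = 0.201). In replicate 1 it was the most abundant of the 44 genes by normalized count, 5.78 times its level in replicate 2 (95% interval 5.65 to 5.92).

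Phosphofructokinase commits sugar to glycolysis, and of its subunits only the liver form passed. Pfkl had 3381 and 1961 normalized counts in FGF13Aoe libraries against 902 and 1454 in control libraries, without overlap (log2 change 1.17 ± 0.33, SE from limma, 2 libraries per group, adjusted p = 0.039). The call was lost without FGF13Aoe replicate 1 (log2 change 0.77, adjusted p = 0.093), control replicate 1 (0.82, adjusted p = 0.184) and control replicate 2 (1.51, adjusted p = 0.0508). The muscle form Pfkm had 3392 and 2726 against 2628 and 2916 (adjusted p = 0.512), and the platelet form Pfkp 4066 and 1419 against 1692 and 2069 (adjusted p = 0.574). Replicate 2 was below both control libraries for Pfkp and between them for Pfkm. Pfkfb3, which makes the strongest activator of phosphofructokinase, had 5329.5 and 1362 against 969 and 1065 (log2 change 1.41 ± 0.59, adjusted p = 0.113), with both FGF13Aoe libraries above control. Pfkfb4, of the same family, had 99.1 and 158 against 169 and 164 (adjusted p = 0.277) and was lower in replicate 1 than in replicate 2, unlike most of the 44 genes.

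Aldolase splits the 6-carbon sugar, and its brain form Aldoc, abundant in astrocytes, was the gene whose highest value lay in FGF13Aoe replicate 2. Aldoc had 9906 and 11909 normalized counts in FGF13Aoe libraries against 6611 and 4580.1 in control libraries, and rose by a log2 change of 0.98 ± 0.22 (SE from limma, 2 libraries per group, adjusted p = 0.0207). Both FGF13Aoe libraries were above both control libraries, as were the summed astrocyte markers given above. Neither the fit lacking control replicate 1 (1.25, adjusted p = 0.0529) nor that lacking control replicate 2 (0.72, adjusted p = 0.16) called it. Aldoa, the ubiquitous form, had 17012 and 6309.9 against 6133 and 8017 (log2 change 0.56 ± 0.46, adjusted p = 0.368). Tpi1, which interconverts the triose phosphates, had 7926 and 4319 against 3744 and 5230.1 (adjusted p = 0.355). For Aldoa and Tpi1, replicate 2 lay between the control libraries.

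In the lower part of the pathway 0 of 6 genes rose and 1 fell, beside 16.2% and 19.1% of all tested genes, so its share of falls is near the background. Pkm, pyruvate kinase, which makes pyruvate and ATP (ENSMUSG00000032294, chromosome 9, 59656368 to 59679375), had 13214 and 11469.9 normalized counts in FGF13Aoe libraries against 18198 and 20636 in control libraries. It fell by a log2 change of -0.65 ± 0.18 (SE from limma, 2 libraries per group, adjusted p = 0.0382), with both FGF13Aoe libraries below both control libraries. The call was lost when control replicate 1 (log2 change -0.75, adjusted p = 0.19) or control replicate 2 (-0.56, adjusted p = 0.285) was left out. The table counts reads per gene and does not separate the M1 and M2 isoforms of Pkm.

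Gapdh, the dehydrogenase that is often used as a loading control, had 24636 and 12755 normalized counts in FGF13Aoe libraries against 15146 and 19556 in control libraries (log2 change 0.04 ± 0.34, adjusted p = 0.932). Its FGF13Aoe libraries lay on opposite sides of the control libraries, 1.93-fold apart (95% interval 1.89 to 1.97). Pgk1, the first enzyme to yield ATP, had 9771 and 5532 against 5395 and 7173 (adjusted p = 0.555), and Pgam1, the mutase after it, 3228 and 1556 against 2286 and 2615 (adjusted p = 0.788). Eno1, the main enolase, had 15691 and 9313 against 13949.8 and 18269.9 (adjusted p = 0.322), and Eno2, the enolase of neurons, 1016 and 316 against 554 and 781 (adjusted p = 0.772). For Pgk1, Pgam1 and Eno2 replicate 1 was above both control libraries, and for Pgam1, Eno1 and Eno2 replicate 2 was below both.

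Pyruvate can become lactate or enter mitochondria, and of the genes at this branch Pdk1 rose. PDK1 blocks pyruvate dehydrogenase and so keeps pyruvate out of the citric acid cycle. Pdk1 (chromosome 2, 71873224 to 71903858) had 2004 and 1064 normalized counts in FGF13Aoe libraries against 467 and 677 in control libraries, without overlap (log2 change 1.38 ± 0.33, SE from limma, 2 libraries per group, adjusted p = 0.0257). Neither the fit lacking control replicate 1 (1.11, adjusted p = 0.128) nor that lacking control replicate 2 (1.64, adjusted p = 0.0529) called it. Its relative Pdk3 had 313 and 222 against 198 and 233 (adjusted p = 0.339). Ldha, which makes lactate, had 10448 and 4532 against 5552 and 6913 (log2 change 0.15 ± 0.39, adjusted p = 0.781), with the FGF13Aoe libraries on opposite sides of control. Ldhb, the subunit that favours the return of lactate to pyruvate, had 3893 and 4200.5 against 3568 and 4314 (adjusted p = 0.832), and all 4 libraries were close.

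The mitophagy receptors Bnip3 and Bnip3l, which mark mitochondria for removal, both rose. Bnip3 (chromosome 7, 138890836 to 138909519) had 1244 and 346 normalized counts in FGF13Aoe libraries against 113 and 182 in control libraries (log2 change 2.19 ± 0.60, SE from limma, 2 libraries per group, adjusted p = 0.0365). Bnip3l, also called NIX, had 2917 and 2236 against 1259 and 1245 (log2 change 1.03 ± 0.16, adjusted p = 0.00685). In both genes each FGF13Aoe library was above each control library, and Bnip3l differed much less between FGF13Aoe libraries (1.3-fold) than Bnip3 (3.6-fold). Neither passed without control replicate 1 (log2 changes 1.84 and 1.04, adjusted p = 0.154 and 0.0586) or control replicate 2 (2.53 and 1.02, adjusted p = 0.077 and 0.0544). Ddit4, which restrains mTOR under stress, had 3122 and 1596 against 1373 and 1355 (log2 change 0.71 ± 0.30, adjusted p = 0.119). Higd1a, a mitochondrial survival protein, had 1015 and 379.6 against 597 and 769.6 (adjusted p = 0.841), again with replicate 1 above and replicate 2 below control.

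Among the other HIF targets, Mxi1 and Kdm3a rose with little difference between the FGF13Aoe libraries. Mxi1, a transcription factor that opposes MYC (ENSMUSG00000025025, chromosome 19, 53310518 to 53375810), had 2009 and 1441 normalized counts in FGF13Aoe libraries against 447 and 424 in control libraries. The FGF13Aoe libraries stood at 4.62 and 3.31 times the control mean, and the log2 change was 1.97 ± 0.18 (SE from limma, 2 libraries per group, adjusted p = 0.00199). Kdm3a, a demethylase of histone H3 lysine 9 (ENSMUSG00000053470, chromosome 6, 71588972 to 71632990), had 3580.0 and 2548 against 1015 and 1219 (log2 change 1.44 ± 0.20, adjusted p = 0.00517). Its FGF13Aoe libraries stood at 3.2 and 2.28 times the control mean.

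The remaining HIF targets were led by FGF13Aoe replicate 1 and did not pass. P4ha1 and P4ha2 encode collagen prolyl hydroxylase subunits. P4ha2 had 1379 and 173 normalized counts in FGF13Aoe libraries against 63.4 and 81.4 in control libraries (log2 change 2.75 ± 0.90, adjusted p = 0.0611), and P4ha1 3518 and 1099 against 652 and 963 (1.31 ± 0.53, adjusted p = 0.105). Ero1l, which forms disulfide bonds in the endoplasmic reticulum, had 9402 and 732 against 427 and 607 (log2 change 2.36 ± 1.10, adjusted p = 0.143). For these 3 genes both FGF13Aoe libraries were above control, but replicate 1 exceeded replicate 2 by 7.97-fold for P4ha2 (95% interval 6.78 to 9.41), 3.2-fold for P4ha1 and 12.8-fold for Ero1l (11.9 to 13.9). Bhlhe40, a repressor tied to the circadian clock, had 3073 and 1041 against 569 and 821 (log2 change 1.39 ± 0.50, adjusted p = 0.0772). Ankrd37, a small ankyrin repeat protein, had 95.5 and 31.4 against 4.95 and 18.7 (2.37 ± 0.77, adjusted p = 0.0592). Ndrg1, a stress-responsive gene that is also known from myelin, had 1304 and 219.6 against 290.2 and 415 (0.62 ± 0.78, adjusted p = 0.558), with replicate 2 below both control libraries.

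Counting limits apply to some members. Annotated exons of another gene cover 26.4% of the exonic bases of Ankrd37 (Lrp2bp, opposite strand), 22.5% of Higd1a, 22.3% of Bnip3 and 11.5% of Gpi1 (all opposite strand), and 15.3% of Pkm and 10.8% of Pfkm (same strand). Whether counting used strand is not known here, so these counts are uncertain to that extent. Gm26762, which overlaps Gpi1 on the opposite strand, had 299.6 and 21.3 normalized counts in FGF13Aoe libraries against 16.8 and 17.9 in control libraries. Like Gpi1 it was highest in FGF13Aoe replicate 1, at a far lower level. Its replicate 2 lay above both control libraries, while that of Gpi1 lay between them. Gapdh, Pgk1, Pgam1, Eno1, Aldoa, Ldha and Bnip3l have near-identical copies in the genome. Reads that fit both gene and copy may be counted for the copy or not at all. The 11 such copies examined had at most 25.4 normalized counts in any library. Their counts do not show how many reads went uncounted, and only these 11 were examined.

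Related genes that carry out the same step were set against each other as log2 ratios within each library, each minus its mean in the control libraries. Hk2 over Hk1 stood at 2.15 and 0.557 in FGF13Aoe libraries against -0.365 and 0.365 in control libraries. The ratios of Pfkm to Pfkl (-1.268 and -0.797 against 0.269 and -0.269) and Pdk3 to Pdk1 (-1.291 and -0.874 against 0.152 and -0.152) were below both control libraries in both FGF13Aoe libraries. So were those of Pfkp to Pfkl (-0.441 and -1.173 against 0.199 and -0.199) and Bnip3l to Bnip3 (-1.888 and -0.428 against 0.351 and -0.351). In these pairs the balance lay towards Pfkl, Pdk1 and Bnip3, each of which rose. The ratios draw on the same values as those calls and are not separate evidence.

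Other ratios lay on opposite sides of the control mean in the FGF13Aoe libraries. Aldoc over Aldoa was -0.43 and 1.266 in FGF13Aoe libraries against 0.458 and -0.458 in control libraries, so replicate 1 lay between the control libraries. Ldhb over Ldha was -0.765 and 0.549 against 0.021 and -0.021. Slc2a3 over Slc2a1 was -0.946 and 0.631 against 0.305 and -0.305, and Eno2 over Eno1 was 0.652 and -0.278 against -0.053 and 0.053. Epas1 over Hif1a, at -0.03 and 0.086 against -0.067 and 0.067, was close to 0 in all 4 libraries. No test was made on these ratios.

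**Figure D3:**
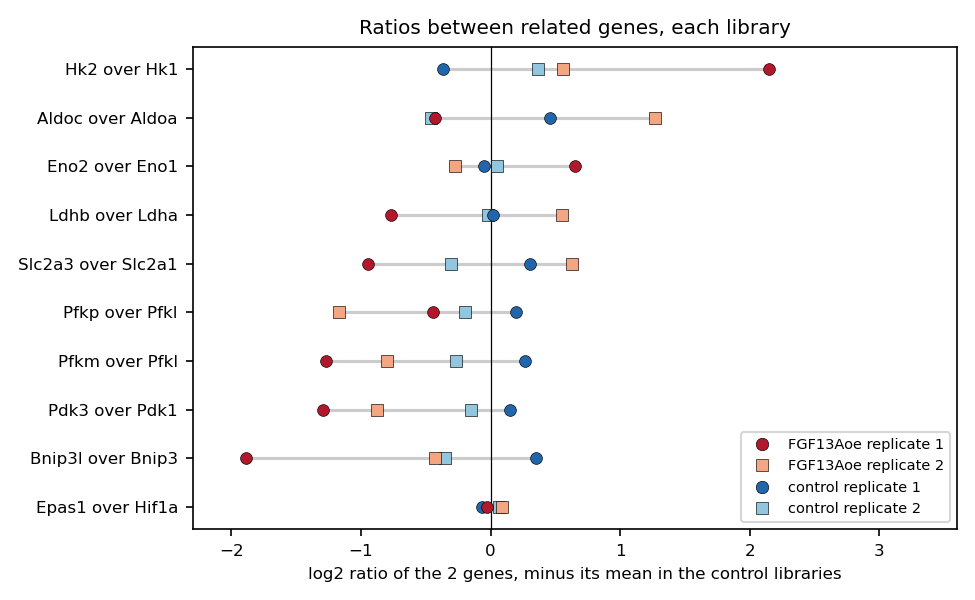
Log2 ratio of the normalized counts of 10 pairs of related genes in each library, minus the mean of the control libraries. Both FGF13Aoe libraries lie left of both control libraries for Pfkm over Pfkl, Pfkp over Pfkl, Pdk3 over Pdk1 and Bnip3l over Bnip3, and on opposite sides of 0 for Aldoc over Aldoa, Ldhb over Ldha, Slc2a3 over Slc2a1 and Eno2 over Eno1.

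Levels can be compared between genes only per length. The length here joins the exons of all annotated transcripts, expressed or not, so the order between genes depends on the annotation. Values are normalized counts per kilobase of this length. On this scale the order in FGF13Aoe replicate 1 was led by Gpi1 at 8055 per kilobase, ahead of Gapdh at 5961, Aldoa at 5844 and Vegfa at 4957. In FGF13Aoe replicate 2 it was led by Aldoc at 3649.8, ahead of Gapdh at 3086 and Ldhb at 2675. In the control libraries Gapdh (3665 and 4732), Pkm (3639 and 4126) and Eno1 (2593 and 3397) led. Vegfa was at 954 per kilobase in FGF13Aoe replicate 2, against 267 and 434 in control libraries, and Slc2a1 at 2513 and 188 in FGF13Aoe libraries against 168 and 278. At the low end, Car12 had 2.7 and 1.6 per kilobase in FGF13Aoe libraries against 22.9 and 26.9 in control libraries.

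For this and the following lists, shares of all tested genes in fits without a library are those given above. The HIF machinery beyond the 4 genes above held 11 tested genes. In FGF13Aoe replicate 1, 2 were at least 2-fold higher than in replicate 2 and 0 lower, beside 5.15% and 2.95% of all tested genes. Of the 11, Os9, Arnt and Vhl rose and 0 fell, beside 16.2% and 19.1% of all tested genes. The median log2 change was 0.35, and 0.31 with either FGF13Aoe library alone. Arnt, the constant partner of the HIF alpha subunits, had 1188 and 969.7 normalized counts in FGF13Aoe libraries against 554 and 613 in control libraries (log2 change 0.88 ± 0.15, limma, adjusted p = 0.00923). Vhl, which removes them, had 1259 and 1019 against 777 and 740.3 (0.58 ± 0.14, adjusted p = 0.0281). In both genes each FGF13Aoe library was above each control library. None of the 3 was called without control replicate 1 or control replicate 2.

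Of 38 tested further HIF target genes, 10 rose and 3 fell, beside 16.2% and 19.1% of all tested genes. Their median log2 change was 0.58. Between the FGF13Aoe libraries they differed in the same direction as the 44 genes. This list was chosen with earlier results of these data known, so it is not separate evidence. In replicate 1, 18 were at least 2-fold higher than in replicate 2 and 0 lower, beside 5.15% and 2.95% of all tested genes. The median was 1.05 with replicate 1 alone and 0.08 with replicate 2 alone. Wsb1, part of a ubiquitin ligase, had 13034 and 9038 normalized counts in FGF13Aoe libraries against 2352 and 2022 in control libraries (log2 change 2.31 ± 0.21, adjusted p = 0.00194). Ppp1r3c, which directs a phosphatase to glycogen, had 3103 and 2889.7 against 837 and 923 (1.77 ± 0.12, adjusted p = 0.00121). Igfbp3, a binding protein of insulin-like growth factors, fell, with 428 and 317 against 3999 and 6858 (-3.83 ± 0.28, adjusted p = 0.00134). In these 3 genes the FGF13Aoe libraries differed from each other far less than from control. With either control library left out, 6 of this list were called higher and 1 lower.

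Downstream of pyruvate, the genes of the citric acid cycle were lower in both FGF13Aoe libraries. Of 16 tested, 0 rose and 13 fell, beside 16.2% and 19.1% of all tested genes, with a median log2 change of -0.64. The median was -0.77 with FGF13Aoe replicate 1 alone and -0.51 with FGF13Aoe replicate 2 alone. Idh3a, a subunit of isocitrate dehydrogenase, had 802 and 841 normalized counts in FGF13Aoe libraries against 2797 and 2742 in control libraries (log2 change -1.75 ± 0.11, adjusted p = 0.00112). Mdh2, malate dehydrogenase, had 2501 and 3033 against 5752 and 5998 (-1.09 ± 0.14, adjusted p = 0.00481). Between the FGF13Aoe libraries 0 of the 16 differed 2-fold. The count of falls was 4 without control replicate 1 and 2 without control replicate 2.

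Of 12 genes for the entry of pyruvate into mitochondria, 2 rose and 5 fell, beside 16.2% and 19.1% of all tested genes. Their median log2 change was -0.38. Those that rose, Pdk2 and Pdk4, encode kinases that shut off pyruvate dehydrogenase, as PDK1 does. Pdk2 had 1641 and 1253 normalized counts in FGF13Aoe libraries against 506 and 587 in control libraries (log2 change 1.39 ± 0.17, adjusted p = 0.00407), and Pdk4 had 1098 and 466 against 139 and 133 (2.39 ± 0.39, adjusted p = 0.00849). Those that fell, Dlat, Pdhx, Dld, Pdhb and Pdha1, encode parts of the dehydrogenase complex itself. Pdhx had 336 and 425 against 735 and 780.2, and the log2 changes were -0.98 for Dlat, -0.85 for Dld, -0.74 for Pdhb and -0.70 for Pdha1. Both FGF13Aoe libraries were on the same side of control in all 7 genes. Pdk2 and Pdk4 were called without either control library, while the falls numbered 0 without control replicate 1 and 1 without control replicate 2.

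Of 23 tested further glycolysis isozymes and regulators, 4 rose and 6 fell, with a median log2 change of 0.03. Of all tested genes 16.2% rose and 19.1% fell, so these counts lie near the background. The same shares stand beside the glycogen and pentose phosphate genes below. Slc16a7, a monocarboxylate transporter of neurons, fell, with 56.8 and 56.7 normalized counts in FGF13Aoe libraries against 347 and 350.6 in control libraries (log2 change -2.60 ± 0.19, adjusted p = 0.00128), in company with the lower neuron markers. The glycerol phosphate dehydrogenases Gpd1 and Gpd2 fell (-0.99 and -1.01), and Eno3, the enolase of muscle, rose (1.88). Without control replicate 1 the list gave 1 higher and 2 lower, and without control replicate 2 it gave 1 higher and 3 lower. Of 13 glycogen genes 3 rose (Pygb, Phkg2 and Pygl, log2 changes 1.27, 0.58 and 1.72) and 2 fell (Pygm and Gyg, -3.22 and -0.47), with a median of 0.19. The glycogen genes gave 1 higher and 1 lower without control replicate 1, and 0 higher and 1 lower without control replicate 2. Of 8 pentose phosphate genes Rpe alone was called, with a log2 change of -0.63, and it was not called without either control library.

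Genes of the integrated stress and unfolded protein response also differed between the FGF13Aoe libraries. Of 12 tested, Pdia4 rose (log2 change 0.83) and Sesn2 fell (-1.16), beside 16.2% and 19.1% of all tested genes, with a median of 0.00. All 12 were higher in FGF13Aoe replicate 1 than in replicate 2, with a median difference of 0.98 log2 units, beside -0.01 over all tested genes. At least 2-fold higher were 6 of them, beside 5.15% of all tested genes. The median log2 change was 0.53 with replicate 1 alone and -0.59 with replicate 2 alone. With either control library left out, none of the 12 was called by limma.

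**Figure D4:**
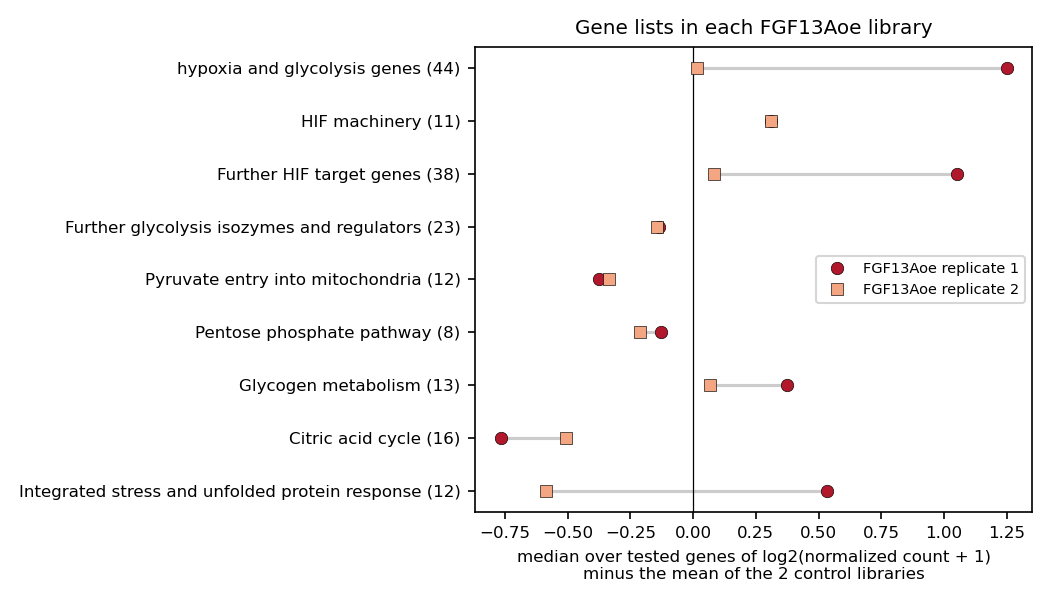
Median over the tested genes of each list of log2(normalized count + 1) minus the mean of the 2 control libraries, for FGF13Aoe replicates 1 and 2. The libraries lie apart for the 44 genes (1.25 and 0.02), the further HIF targets (1.05 and 0.08) and the stress response (0.53 and -0.59), and close together for the citric acid cycle (-0.77 and -0.51). The lists were chosen with earlier results of these data known.

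Depth and marker levels were also set side by side for the FGF13Aoe libraries. Replicate 1 had 9724413 reads in genes and replicate 2 had 11389767. Of the 10 neuron, 10 astrocyte, 10 oligodendrocyte lineage and 10 proliferation markers, 0 differed 2-fold between the FGF13Aoe libraries. Their median differences were -0.01, -0.02, -0.08 and -0.33 log2 units. Below 2-fold, the proliferation markers shared a direction: 0 of 10 were higher in replicate 1, and they summed to 5623 and 8047 normalized counts. Of the neuron, astrocyte and oligodendrocyte lineage markers 5, 5 and 4 of 10 were higher in replicate 1. In the less abundant marker lists some genes differed 2-fold. At least 2-fold higher in replicate 1 were 2 of 7 tested microglial, 2 of 7 pericyte and fibroblast and 1 of 6 endothelial markers. At least 2-fold lower were 1 microglial marker and 1 of 6 ependyma and choroid plexus markers. Median differences were -0.01 for microglial and 0.63 for pericyte and fibroblast markers. Of all tested genes 5.15% were at least 2-fold higher in replicate 1 and 2.95% lower. The cassette's gene Fgf13 differed by 1.22-fold. Culture conditions are not given per library, and the part of depth and of these markers in the difference was not tested.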

How the data were processed

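Members and gene lists were chosen with earlier results of these data known. The authors deposited a signal per gene and library, obtained by dividing each gene's read count by the library's size factor and called normalized count here. The deposited table also gives the authors' log2 fold change with its standard error, a Wald score and p-values, and 0 library columns were left unused. STAR, DESeq2 and the build mm10 are named in the submitters' processing notes. Not given in the sources used here were their versions, the annotation and any use of strand. Values were whole multiples of a step per library (100%, tolerance 1e-06), and dividing by the step gave reads. The step of control replicate 1, 0.991, lies too near 1 for recovery to be accepted, so edgeR 4.0.16 and DESeq2 1.42.0 were run on reads of the other 3 libraries, as alternatives.

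Groups came from sample titles. The 15204 genes that reached a normalized count of 10 in 2 or more of the 4 libraries were tested with limma 3.58.1 (R 4.3.3, intensity trend) on log2(normalized count + 1), two-sided, with Benjamini-Hochberg adjustment over all of them and a threshold of 0.05. Such log2 changes understate the change of low genes. A fit without a library leaves 1 library in a group, which is assumed to vary like the other group. Intervals on ratios between 2 libraries (95%, binomial on reads) cover counting error only. Exons and positions came from GENCODE on GRCm38 (99.75% of the table's IDs found), promoter sequences from RefSeq on GRCm38.p6. Values in all 4 libraries are given for called members, for members differing at least 2-fold within a group and for Hif1a, Epas1, Slc2a1, Gapdh, Pkm and Ldha. For other pathway lists up to 4 called genes with the smallest p are named, plus those needed for a small count. Other pseudocounts, filters, scalings, no trend, a replicate block, the p-values of the authors and omission of single libraries were tried. The procedure was tested on simulated reads.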

Additional observations from a re-analysis of the deposited data

How the results depend on the processing

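The counts of called genes moved when either control library was left out, and those of the 44 genes also when an FGF13Aoe library was. Leaving out each library in turn gave 551 to 2822 genes higher and 867 to 3447 lower over all genes, and 2 to 27 higher and 1 to 7 lower among the 44. With edgeR on the reads of 3 libraries 537 genes were higher and 1086 lower, with 2 and 1 of the 44. With DESeq2 on these reads 722 were higher and 968 lower, with 5 and 1 of the 44. These tests hold 1 control library, and fewer samples were tested. Without an intensity trend 1885 genes were higher and 2245 lower, with 3 and 1 of the 44; the cause was not tested. Other pseudocounts, filters, TMM scaling, median centring and the authors' p-values kept all these counts within 1.5 times, and scaling moved the median of all genes by at most 0.07.

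Replicate numbers are shared between groups only as numbers. Deviations from the group mean correlated at -0.103 between same-numbered libraries. With the replicate number as a block, 2049 genes were higher and 2647 lower, and of the 44 genes 9 were higher, with P4ha2 added, and 1 lower, with Pkm not called. With the crossed pairing, added after the data were seen, the counts were 2816 and 3257 genes and 23 and 2 of the 44.

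Directions changed only in members that had not passed. Epas1 was at 0.0235 with median centring, Higd1a at 0.0229 with the authors' values, Gapdh at -0.0454 with edgeR and -0.052 with DESeq2, and Ldhb at -0.0738 with edgeR and -0.0807 with DESeq2; the cause was not tested. Leaving out each library in turn gave log2 changes of -1.21 to 1.97 for Adm, -0.15 to 1.28 for Aldoa, -0.0114 to 1.45 for Egln1, -1.06 to 0.63 for Eno2, -0.43 to 0.52 for Gapdh, -0.84 to 0.58 for Higd1a, -0.61 to 0.23 for Hk1, -0.0557 to 2.38 for Hk2, -0.45 to 0.75 for Ldha. They were -0.0933 to 0.18 for Ldhb, -0.66 to 1.91 for Ndrg1, -0.0222 to 0.29 for Pfkm, -0.40 to 1.12 for Pfkp, -0.65 to 0.40 for Pgam1, -0.17 to 0.65 for Pgk1, -0.20 to 3.54 for Slc2a1 and -0.0349 to 0.84 for Tpi1.

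Depth limits the lowest members: Car12, Ankrd37, Car9 and Slc16a3 had few reads in at least 1 group or library, so their ratios are the least precise. With the filter at 50, Ankrd37 was not tested.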

Other observations

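Genes outside the 44 also differed between the FGF13Aoe libraries, and those named here were chosen after their values were seen. Tested genes with at least 50 normalized counts in some library were ordered by the excess of replicate 1 over replicate 2. The 44 genes, out of 15204 tested, made up 3 of the first 10, 4 of the first 20 and 5 of the first 40. How many of the tested genes reached 50 was not counted. Tgfbr3, a co-receptor of TGF-beta, headed this order, with 186 and 4.05 normalized counts in FGF13Aoe libraries against 52.5 and 36.6 in control libraries. The stress-response gene Trib3 had 549.7 and 63.8 against 56.5 and 69.1, and Ddit3, which encodes the stress factor CHOP, had 1270 and 281 against 236 and 294. For Trib3 and Ddit3, replicate 1 alone was high, and for Tgfbr3 replicate 2 was also below both control libraries. In the opposite direction stood Adgre1 and C3ar1, receptors of macrophages and microglia, with 23 and 114 and with 15.7 and 83 normalized counts in FGF13Aoe libraries against 96.1 and 130.2 and against 99.1 and 90.3 in control libraries. FGF13Aoe replicate 1 was the lowest library for both. The microglial marker list as a whole did not share this direction. Its sum was 445 and 334 normalized counts in FGF13Aoe replicates 1 and 2, and the median difference was -0.01 log2 units. Of 7 tested markers 2 were at least 2-fold higher in replicate 1. At least 2-fold lower was 1 marker, C1qb, with 14.5 and 43.5 normalized counts.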
